A study of Mus musculus with 16 samples.

Results

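The m6A peaks on the mRNAs of the m6A machinery itself were described here for 10 genes: the methyltransferase (writer) complex genes Mettl3, Mettl14, Wtap, Virma, Zc3h13, Cbll1, Rbm15 and Rbm15b, and the demethylase (eraser) genes Fto and Alkbh5. The genes were chosen by name. Peaks on the same strand that overlapped their exons (GENCODE M39, GRCm39) were taken from the 8 peak lists of the immunoprecipitated (IP) libraries. The exception was 1 peak, which was given to a neighbouring gene. The 10 genes carried 311 of 169564 peaks, and 9 of the 10 were among the 11518 protein-coding genes with a peak in any list. Peaks that shared at least 1 exonic base were joined into regions, which gave 60 regions on these genes of 52772 in all. MeRIP-seq pulls down fragments of RNA with an antibody to m6A and compares their reads with those of RNA taken before the pull-down (input). Cortex was taken from male C57BL/6J mice of 6 to 8 weeks. In the MCAO/R groups a thread closed the right middle cerebral artery for 2 h, followed by reperfusion for 0 h (MCAO/R-0 h), 6 h (MCAO/R-6 h) or 24 h (MCAO/R-24 h) before the peri-infarct cortex was taken. Sham mice had the operation under the same Avertin anaesthesia without the thread being inserted. The methods give 6 mice for each group. Each group had 2 IP libraries, and nothing in the sources says whether these came from separate mice or from pools, so the spread between them may be technical. Below, the reperfusion groups are given by their time.

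The writer complex adds a methyl group to adenosines of nascent mRNA. Mettl3 holds the catalytic site, Mettl14 is its RNA-binding partner, Wtap anchors both to the regulatory subunits Virma, Zc3h13 and Cbll1, and Rbm15 and Rbm15b are RNA-binding adaptors of the complex. Fto and Alkbh5 are demethylases that take methyl groups off RNA, and proteins with a YTH domain read the mark. The modified adenosine usually lies in the motif RRACH (R is A or G, H is A, C or T), and in mammalian mRNA it is frequent in long exons and around the stop codon.

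A peak in these lists is either present or absent, with a score on a scale that the sources do not define. The score was used only as a rank, the percent of the peaks of the same list that scored lower. The lists held 18775 to 24078 peaks, and no read counts, so the depth behind a peak is unknown. A missing peak cannot be told apart from too little RNA, since the input libraries were not analysed here, and in whole tissue fewer cells of a type cannot be told apart from less RNA per cell. No line was the same in any pair of lists. Of the markers of cortical excitatory neurons, Tbr1, Cux2 and Neurod6 carried a peak in all 8 lists, while Camk2a had none and Slc17a7 1 peak. Astrocyte markers carried a peak in 2 of 3 cases (Gfap had none), oligodendrocyte markers in 2 of 3 and microglia markers in 3 of 3. No peak lay on 2 liver or 2 kidney markers, and the heart markers Tnnt2 and Myh6 had peaks in 6 lists and 1 list. A listed peak is a call of enrichment by the authors' peak caller. It is not proof that the RNA was methylated, and it does not give the level of the gene. The paper reports fewer confident peaks per sample than these lists hold.

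Of the 14 regions found in all 8 lists, 6 had their RRACH site nearest to the middle of the peaks inside a peak of every list. These sites are printed with 8 bases on either side, in the sense of the mRNA from 5′ to 3′, because a peak of every list covered them, which was also true of parts of Virma-4, Rbm15-6 and Zc3h13-6 (75, 50 and 25 nt) away from the site nearest to their middle. Capitals mark the RRACH match, T stands for U, and coordinates are GRCm39. None was shown to be the methylated base.
Wtap-1, coding sequence, exon 6 of 8, chr17:13194202-13194222, minus strand: cccaaaatGAACTgagtgcct
Wtap-2, 3′ UTR of the short transcript, chr17:13193654-13193674, minus strand: aagactgtGGACTtcatgatt
Zc3h13-9, coding sequence, exon 14 of 19, chr14:75568667-75568687, plus strand: agcgtggaGAACCcagtcgaa
Zc3h13-12, 3′ UTR, exon 19 of 19, chr14:75581322-75581342, plus strand: agcagtgaAAACTtcaatctt
Rbm15-5, coding sequence, exon 1 of 2, chr3:107239001-107239021, minus strand: gtggtctgGGACCctgggtgc
Rbm15b-3, coding sequence of its single exon, chr9:106763278-106763298, minus strand: cggccgtgGGACTgtctcgag
The sites nearest to the middle of the other 8 regions lay inside a peak of 3 to 7 lists. In a window of 101 nt around the middle of each region, 12 of the 14 regions (85.7%) held an RRACH match on the sense strand, with a mean of 2 matches per window. Over all 4314 regions of coding genes found in all 8 lists, 89% of such windows held one, with a mean of 2.11. The form GGACT, which is one of the RRACH forms, was in 1 of the 14 windows (7.14%) and in 16.4% of all windows.

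The regulatory subunits and adaptors carried peaks in every list, and the catalytic pair and the demethylases did not. The 10 genes carried 37 and 41 peaks in the Sham lists, 39 and 38 at 0 h, 40 and 37 at 6 h, and 37 and 42 at 24 h. The group means were 39 ± 2.83 in Sham, 38.5 ± 0.707 at 0 h, 38.5 ± 2.12 at 6 h and 39.5 ± 3.54 at 24 h (SD, n = 2 each), so the groups overlapped and their means differed by less than the SD of Sham. Wtap, Virma, Zc3h13, Cbll1, Rbm15 and Rbm15b had a peak in all 8 lists, as did 4092 of 21770 protein-coding genes (18.8%). Mettl14 had one in 6 lists, Alkbh5 in 5, Mettl3 in 2 and Fto in none.

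**Figure D1:**
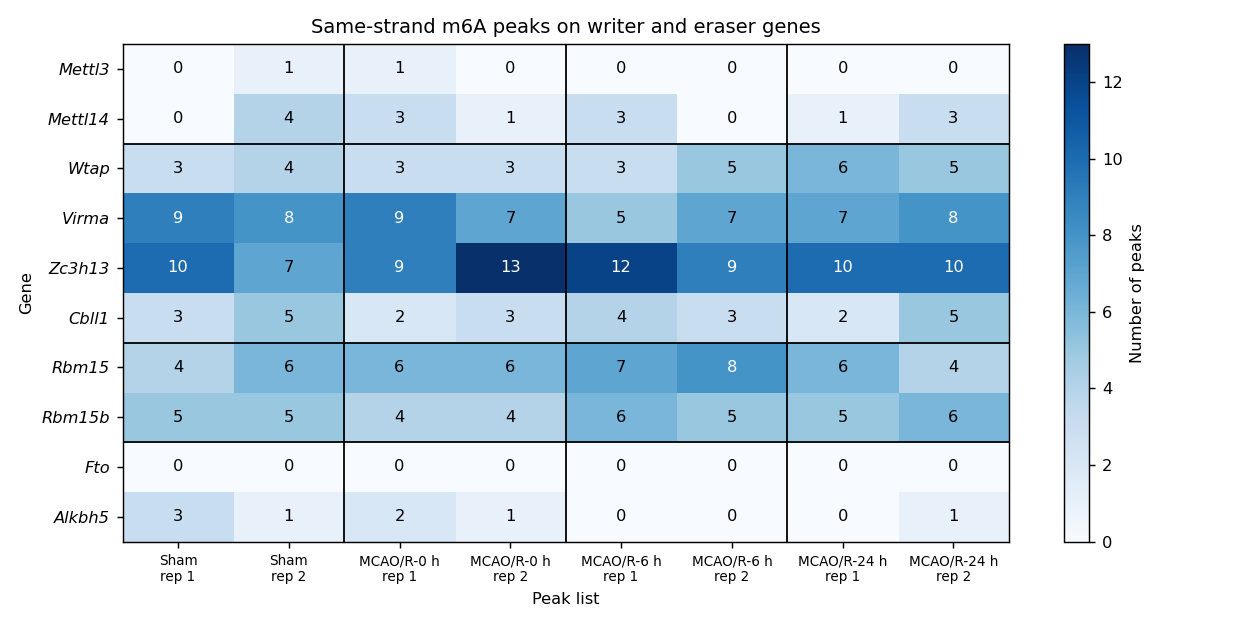
Number of m6A peaks on each gene (rows, ordered as catalytic pair, regulatory subunits, adaptors and demethylases) in each of the 8 peak lists (columns, 2 replicates per group); darker blue means more peaks. Zc3h13 has 7 to 13 peaks in every list, whereas Fto has 0 in all 8 and Mettl3 has 1 in 2 lists.

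Mettl3, the catalytic subunit, carried 2 peaks in all. One was in Sham replicate 2, centred in exon 4 of 11 (chr14:52536175-52537234, rank 51.2%), and one in 0 h replicate 1, centred in exon 2 (chr14:52537763-52538782, rank 54.9%). Both lay in the coding sequence and they shared no base. The other 6 lists, among them both of 6 h and both of 24 h, had none. Its mRNA has 2032 nt with no exon over 405 nt. With 2 peaks it stood above 13.6% of the genes with a peak, whose median was 8 peaks over the 8 lists.

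Mettl14 carried 15 peaks in 6 regions, none of them in all 8 lists. It had 0 and 4 peaks in the Sham lists, 3 and 1 at 0 h, 3 and 0 at 6 h, and 1 and 3 at 24 h. The replicates of Sham thus differed more than any pair of group means. The region found most often was Mettl14-4 in exon 10 of 11 (chr3:123164946-123165070), centred at -387 nt from the stop codon. It was in 5 lists, with ranks of 33% in Sham replicate 2, 12.3% and 0.829% at 0 h, 27% in 6 h replicate 1 and 29.4% in 24 h replicate 2. All of its peaks were in the lower-scoring part of their lists, and the median rank of the 15 Mettl14 peaks was 33%. Mettl14-5, in the 3′ UTR 391 nt after the stop codon, was in 3 lists with ranks of 0.0529%, 0.457% and 27.2%.

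Wtap, which holds the catalytic pair and the regulatory subunits together, carried 32 peaks, more than 89.3% of the genes with a peak. Of these, 21 had their centre on the full-length mRNA of 2390 nt and 11 on sequence that only a shorter transcript keeps. The lists held 3 and 4 peaks in Sham, 3 and 3 at 0 h, 3 and 5 at 6 h, and 6 and 5 at 24 h. The covered exonic length was 625 and 775 nt in Sham, 625 and 1225 nt at 0 h, 1019 and 919 nt at 6 h, and 850 and 875 nt at 24 h. Both 24 h lists were above both Sham lists in peak number and in covered length. In covered length the 24 h lists were within the range of the 0 h lists. Both 6 h lists were above both Sham lists and both 24 h lists in covered length.

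Of the 4 Wtap regions, 3 were in all 8 lists. No single base of 1 of them, Wtap-4 (chr17:13186333-13188360), was covered in every list, and its peaks in the 6 h lists did not overlap each other. Wtap-2 (chr17:13193461-13193860) had 300 nt covered in every list. Its ranks were 85.6% and 90.1% in Sham, 78.8% and 87.7% at 0 h, 82.6% and 87.5% at 6 h, and 70.1% and 83.2% at 24 h. Both lists of 24 h were below both Sham lists, by 0.43 ± 0.28 (SE) on the scale of normal scores described further on, which did not pass the test (adjusted p = 0.709, limma). This region lies in an intron of the full-length transcript (8 exons, 1188 coding nt), and in the 3′ UTR of a short transcript that stops after exon 6 and codes for 453 nt. Of the 2611 nt that only the short transcript keeps as exon, peaks covered 422 and 472 nt in Sham, 397 and 497 nt at 0 h, 447 and 475 nt at 6 h, and 347 and 500 nt at 24 h. In 6 lists a single peak ran across the end of exon 6 from coding sequence into that stretch. Peaks from the short transcript cannot be told apart here from peaks on RNA in which the intron was still present. Exons 7 and 8, which only the full-length transcript has (1408 nt), were covered over 100 and 200 nt in Sham, 125 and 625 nt at 0 h, 150 and 250 nt at 6 h, and 300 and 325 nt at 24 h. The 24 h lists were above the Sham lists there, and within the range of the 0 h lists.

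**Figure D2:**
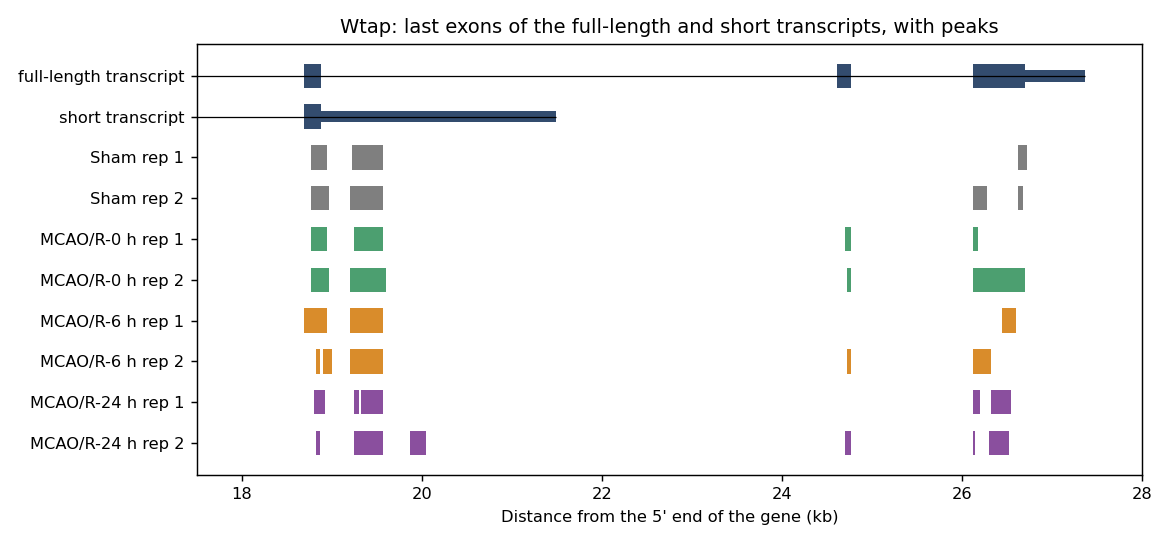
Last exons of Wtap in the full-length and the short transcript (top rows; tall boxes are coding, low boxes untranslated) and the peaks of the 8 lists (colour by group), by distance in kb from the 5′ end of the gene. In all 8 lists a peak lies in the 3′ UTR of the short transcript, in an intron of the full-length one.

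Virma, the largest regulatory subunit, carried 60 peaks, with 9 and 8 in Sham, 9 and 7 at 0 h, 5 and 7 at 6 h, and 7 and 8 at 24 h. The 6 h lists had fewer peaks than the Sham lists, but not less covered sequence: 1600 and 1050 nt, against 950 and 1375 nt. Its peaks formed 16 regions, of which 8 were in a single list. The regions found in all 8 lists, Virma-3 (chr4:11513138-11513487) and Virma-4 (chr4:11513513-11514062), lie next to each other in exon 8 of 25, which with 1141 nt is the longest exon of the mRNA. In Virma-4 75 nt were covered in every list, and in Virma-3 no single base was. Virma-4 ranked 51.9% and 92.6% in Sham, 51.4% and 86.3% at 0 h, 91.7% and 85.5% at 6 h, and 83.3% and 60.2% at 24 h. One Sham list was the highest and the other among the lowest of the 8, so the Sham range took in both 6 h lists and both 24 h lists. Virma-8 and Virma-9, each in 1 list, fell in the 3′ UTR of a short Virma transcript of 13 exons.

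Zc3h13, a zinc finger subunit that holds the complex in the nucleus, carried the most peaks of the 10 genes. Its 80 peaks were more than on 99.3% of the genes with a peak, and its density of 1.29 per kb of mRNA and list, where the median gene had 0.284, exceeded that of 96.3% of them. The lists held 10 and 7 peaks in Sham, 9 and 13 at 0 h, 12 and 9 at 6 h, and 10 and 10 at 24 h. Its best peak ranked at 95.6% or higher in every list: 98% and 95.6% in Sham, 98.6% and 98.3% at 0 h, 98.2% and 97% at 6 h, and 97.6% and 97.2% at 24 h. The median rank over its 80 peaks was 89%.

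Of the 13 Zc3h13 regions, 4 were in all 8 lists. Zc3h13-9 (chr14:75568582-75569227), centred in the long exon 14 of 1191 nt, had 175 nt covered in every list and ranked 92.4% to 97.2%. Zc3h13-7 ran from exon 12 across exon 13 into exon 14 and ranked 84.1% to 98.6%, but no single base of it was covered in every list. Zc3h13-12, the region of the stop codon and the first part of the 3′ UTR, ranked 97.1% and 91.4% in Sham, 86.6% and 87% at 0 h, 56.8% and 96.5% at 6 h, and 82.7% and 97% at 24 h. Both 0 h lists were below both Sham lists, and the 6 h lists held the lowest value of all and one of the highest. Zc3h13-6, which ran from exon 10 into exon 11, ranked 77.4% and 84.9% in Sham and higher in all 6 other lists (92.1% and 93.5%, 91.4% and 91.6%, 88% and 86.2%). Of the 2192 nt of its 3′ UTR, peaks covered 150 to 425 nt per list, and no peak centre lay more than 519 nt after the stop codon.

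Cbll1, a ubiquitin ligase of the complex also called Hakai, carried 27 peaks: 3 and 5 in Sham, 2 and 3 at 0 h, 4 and 3 at 6 h, and 2 and 5 at 24 h. Of these, 24 were chained by shared bases into 1 region of 1175 exonic nt that was in all 8 lists (Cbll1-3, chr12:31537153-31540480), centred in the last exon of 3486 nt. No single base of it was covered in every list. Its best ranks were 82.9% and 84% in Sham, 83.6% and 84.5% at 0 h, 86.2% and 92.5% at 6 h, and 94.4% and 86.5% at 24 h. The 6 h and 24 h lists were above both Sham lists, by 0.29 ± 0.28 and 0.37 ± 0.28 (SE) in normal scores, which did not pass the test (adjusted p = 0.789 and 0.741, limma). Of its 2450 nt of 3′ UTR, 0 to 125 nt per list were covered, and no peak centre lay more than 40 nt after the stop codon.

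Rbm15 carried 47 peaks, with 4 and 6 in Sham, 6 and 6 at 0 h, 7 and 8 at 6 h, and 6 and 4 at 24 h. Both 6 h lists had more than any other list. All but 1 of the 47 lay in the first of its 2 exons (3759 nt), which holds nearly all of the coding sequence. The coding sequence, with 2889 nt, was covered over 1586 and 975 nt in Sham, 1350 and 1191 nt at 0 h, 1550 and 1461 nt at 6 h, and 1225 and 950 nt at 24 h. Of the 4494 nt of 3′ UTR, 50 nt were covered in Sham replicate 1 and none in the other 7 lists. The region Rbm15-5 (chr3:107238267-107239941) held 20 of the peaks, had 325 nt covered in every list and ranked 86.4% to 96.9%.

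At the 5′ end of Rbm15 the 6 h lists stood apart. Of the 893 nt of 5′ UTR, peaks covered 0 and 275 nt in Sham, 50 and 295 nt at 0 h, 350 and 450 nt at 6 h, and 100 and 0 nt at 24 h. Both 6 h lists were above the other 6. Rbm15-1 was in both of them (ranks 10.2% and 41.6%), in 0 h replicate 2 (27.6%) and in no Sham list. Rbm15-4 was in both (63.3% and 54.3%), in 24 h replicate 1 (24.9%) and in no Sham list. It was centred at -2494 nt from the stop codon, inside the coding sequence of 2889 nt. Rbm15-1 adjoins Rbm15-2, which Sham replicate 2 did have (42.3%) and Sham replicate 1 did not, and Rbm15-4 adjoins Rbm15-5, which every list had. This stretch was picked out after its values were seen, and 2 libraries against 2 have 3 splits in an exact permutation test, which cannot give a p under 0.333.

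Rbm15b, a paralogue of Rbm15 in a single exon of 6511 nt, carried 40 peaks: 5 and 5 in Sham, 4 and 4 at 0 h, 6 and 5 at 6 h, and 5 and 6 at 24 h. Both 0 h lists had fewer than the other 6. Their covered length was 575 and 1025 nt, against 1475 and 1350 nt in Sham, 1375 and 975 nt at 6 h, and 1000 and 1050 nt at 24 h, so in that measure 0 h overlapped the later groups. Of the 40 peak centres 34 lay in the coding sequence. Of its 5 regions, Rbm15b-3 (chr9:106763062-106763561) and Rbm15b-5 (chr9:106761287-106762236) were in all 8 lists. Rbm15b-2 was in both Sham lists (68.3% and 19%) and neither 0 h list, and was listed again in 1 library of 6 h (34.7%) and 1 of 24 h (37.7%). Rbm15b-1, at the border of 5′ UTR and coding sequence, was in both 24 h lists (38.4% and 66%) and in no other. One further peak that overlapped a Rbm15b exon, in 0 h replicate 2, was given to the neighbouring gene Manf.

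The erasers carried few peaks. Fto had 0 peaks in all 8 lists on an mRNA of 3767 nt with a 3′ UTR of 2007 nt, as had 10252 of 21770 protein-coding genes (47.1%). Alkbh5 carried 8 peaks on 6054 nt: 3 and 1 in Sham, 2 and 1 at 0 h, 0 and 0 at 6 h, and 0 and 1 at 24 h. Every Sham and 0 h list had at least 1 peak, and 1 of the 4 later lists had one. The peaks were in the lower or middle ranks, with a median of 30.5% and a highest of 59.2%. They formed 4 regions. Alkbh5-1 (chr11:60429022-60429296), at the start codon, was in 4 lists: Sham replicate 1 (52%), both 0 h lists (12.6% and 33.9%) and 24 h replicate 2 (59.2%). The other 3 lay in the 3′ UTR, which has 4105 nt and of which at most 125 nt were covered in any list. The 1 peak of Sham replicate 2 (Alkbh5-3, 27.1%) overlapped no other peak.

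Counted by gene, Alkbh5 was the 1 of 9 members with a peak that had peaks in both Sham lists and none at 6 h, as were 1.57% of all protein-coding genes with a peak. By the same count no member lost its peaks at 0 h (1.42% of all genes) or 24 h (2.2%). None had peaks in both lists of a reperfusion time and none in Sham. All 9 had a peak in Sham replicate 2, so no member could be called gained in this way. Among all genes the shares gained were 3.61% at 0 h, 4.79% at 6 h and 3.99% at 24 h. The 6 members with a peak in all 8 lists could not be called lost either. A single lost gene of 9 is too few to set apart from the shares of all genes.

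Along the mRNA, the peaks of the 10 genes lay mostly inside the coding sequence. Of 298 peak centres placed on the transcript with the longest coding sequence, 251 were in the coding sequence (84.2%, against 60.1% of all peaks), 32 in the 3′ UTR (10.7%, against 35%) and 15 in the 5′ UTR (5.03%, against 4.87%). Within 200 nt of the stop codon lay 10.7% of the centres, against 20.3% of all peaks. By list this share was 16.7% and 7.5% in Sham, 13.2% and 8.33% at 0 h, 12.8% and 11.4% at 6 h, and 11.8% and 5% at 24 h, so each list was below the share over all peaks and the groups overlapped. Exons of over 400 nt held 74.5% of the centres, against 81.8% of all. These shares describe 9 genes, in which peaks of 1 gene are not independent of each other, and Zc3h13 and Virma gave 80 and 60 of the 311 peaks. The other 13 peaks, on Wtap and Virma, were all placed in the 3′ UTR of a shorter transcript of the gene. The shares above leave them out, and with them the 3′ UTR share would be higher.

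**Figure D3:**
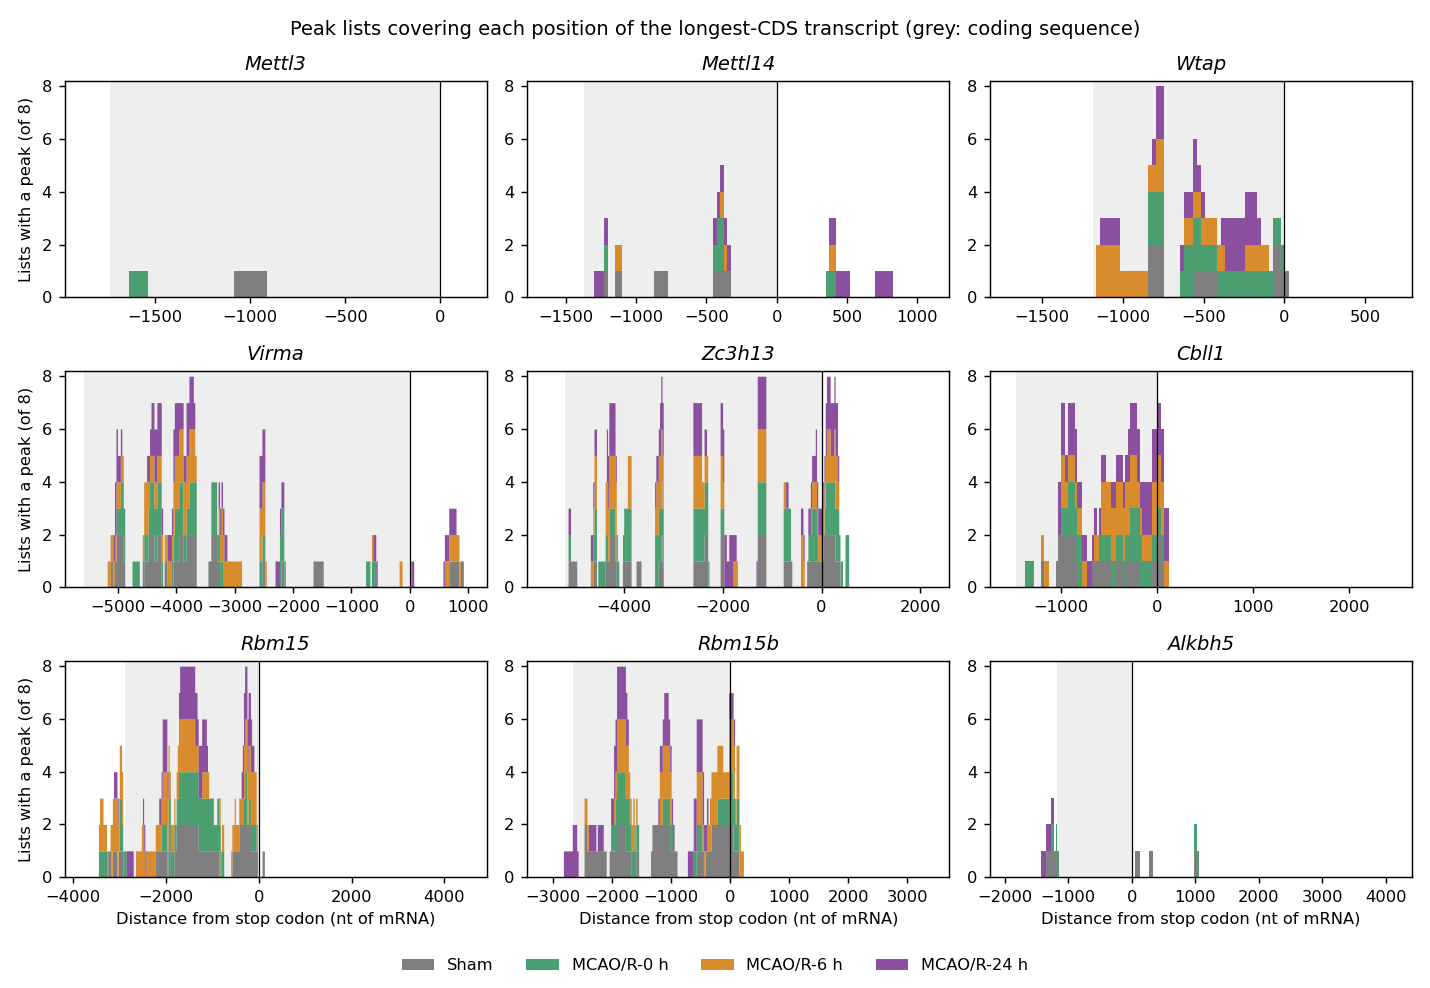
Number of the 8 lists with a peak at each position of the mRNA (stacked by group, 2 lists each), by distance in nt from the stop codon, for the 9 genes with a peak; the coding sequence is shaded. Peaks recur within the coding sequence of Virma, Zc3h13, Rbm15 and Rbm15b, whereas the distal 3′ UTR of Zc3h13, Cbll1, Rbm15 and Rbm15b is empty.

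The peaks of these genes ranked above the middle of their lists in 7 of 8 cases. The median rank of the 311 peaks was 68.3%, where the median of all peaks is 50% by construction, and their median exonic length was 150 nt against 125 nt. By list, the median rank was 64.6% and 59% in Sham, 45.1% and 76.4% at 0 h, 77.8% and 75.2% at 6 h, and 65.7% and 64.5% at 24 h. Both 6 h lists were above both Sham lists, but the 0 h lists spanned nearly the whole range. The 6 h lists were also longer, with 22205 and 23200 peaks against 18775 and 20152 in Sham. The part of list length in these group differences was not tested. By gene, the median was 89% for Zc3h13, 73.7% for Rbm15b, 72% for Wtap, 68% for Cbll1, 57.2% for Rbm15, 53% for Mettl3, 50% for Virma, 33% for Mettl14 and 30.5% for Alkbh5. The 4 genes with the most peaks, Zc3h13, Virma, Rbm15 and Rbm15b, have long mRNAs of 7770, 6571, 8276 and 6511 nt. Alkbh5, of 6054 nt, is nearly as long as Rbm15b and had 8 peaks against 40.

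**Figure D4:**
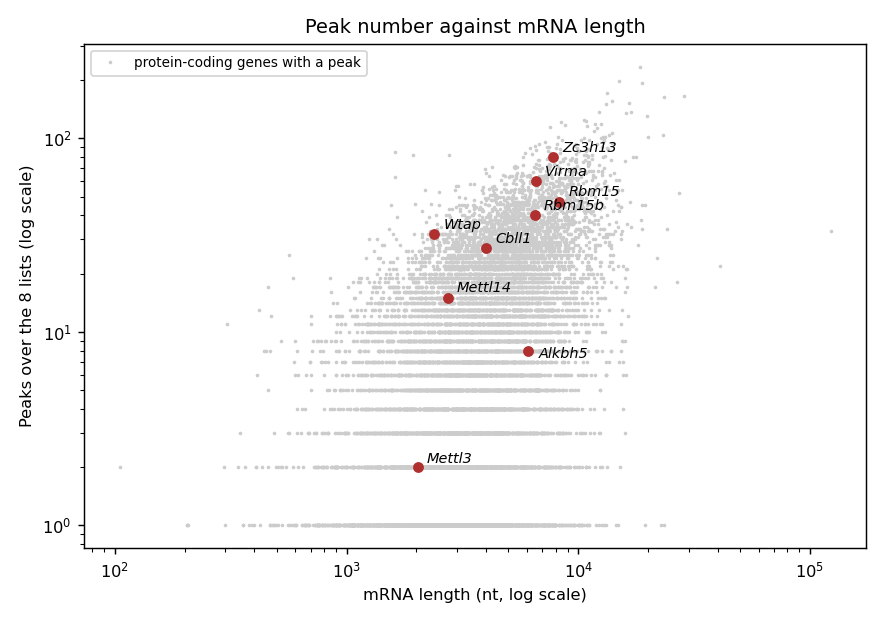
Peaks over the 8 lists against mRNA length for all protein-coding genes with a peak (grey points; both axes on a log scale) and the 9 members with a peak (red). Alkbh5 lies low for its length with 8 peaks on 6054 nt; Wtap is plotted with all 32 peaks at the 2390 nt of its full-length mRNA, on which 21 of them lay.

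Of the 60 regions on these genes, 14 (23.3%) were in all 8 lists and 19 (31.7%) in a single list. Over all regions these shares were 8.97% and 52.6%. Of the member regions found in either list of a group, those found in both were 47.6% in Sham, 61.5% at 0 h, 71.4% at 6 h and 50% at 24 h. Over all regions the shares were 36.1%, 38%, 39% and 36.7%, below the member share in each group, a description with no test. Chained regions such as Cbll1-3 and Rbm15-5 are long (1175 and 1675 exonic nt), and the part of region length or score in these shares was not tested. In Wtap-4, Virma-3, Zc3h13-7, Cbll1-3 and Rbm15b-5, each in all 8 lists, no single base was covered in every list.

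Few member regions changed between Sham and a reperfusion time when a region was called gained if both lists of the time and neither Sham list had it, and lost in the reverse case. In 0 h 1 of 60 was gained (Zc3h13-13, in the 3′ UTR, with ranks of 30.1% and 7.52%) and 1 was lost (Rbm15b-2), against 2.61% gained and 1.27% lost among all regions. In 6 h 3 were gained (Rbm15-1, Rbm15-4 and Zc3h13-11) and 0 lost, against 3.43% and 1.4%. In 24 h 1 was gained (Rbm15b-1) and 0 were lost, against 2.53% and 1.84%. The member shares, 1.67% for 1 region and 5% for 3, were near those of all regions. The counts are small and rest on single lists. Without Sham replicate 1 they were 5, 6 and 2 gained and 8, 8 and 6 lost at 0 h, 6 h and 24 h, and without Sham replicate 2 they were 4, 4 and 1 gained and 5, 5 and 6 lost, since fewer lists then have to match.

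The rank of a region was compared among the 4 groups for the 4735 regions found in all 8 lists, 14 of them on member genes. Ranks were turned into normal scores, the values that a normal distribution with an SD of 1 gives at the same ranks, and were fitted with limma, with Benjamini-Hochberg adjustment over all 4735 regions. No region passed an adjusted p of 0.05 for a difference among the groups (0% of all regions, 0 of 14 member regions), nor in any of the 3 contrasts with Sham. At an unadjusted p under 0.05 were 8.41% of all regions and 1 of the 14, Rbm15-6. In the contrasts with Sham the same threshold was met by 6.65% of all regions and 2 of the 14 at 0 h (Rbm15-6 and Zc3h13-6), by 9.36% and 0 of 14 at 6 h, and by 8.07% and 0 of 14 at 24 h. The exact permutation test over the 105 divisions of the libraries into 4 pairs cannot give a p under 0.00952. A call after adjustment would need very many of the 4735 regions at or near that floor, so its lack of calls says little. In this test 6.76% of all regions and 2 of the 14, Rbm15-6 and Zc3h13-6, had an unadjusted p under 0.05. The median difference from Sham over the 14 regions was 0.00, 0.18 and -0.11 in normal scores at 0 h, 6 h and 24 h, where the median over all 4735 regions was 0.09, 0.11 and 0.09. Among all regions with an unadjusted p under 0.05 (limma), 255, 362 and 296 were higher than in Sham at these times, and 60, 81 and 86 lower.

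Rbm15-6 (chr3:107237467-107238116), in the last part of the coding sequence of Rbm15, ranked 77% and 76.8% in Sham, 55.2% and 27.3% at 0 h, 86.8% and 89% at 6 h, and 62% and 61.6% at 24 h. No 2 groups overlapped: 6 h was highest, then Sham, 24 h and 0 h. The difference from Sham was -0.97 ± 0.30 at 0 h, 0.44 ± 0.30 at 6 h and -0.44 ± 0.30 at 24 h (normal scores, SE). The test over the groups gave p = 0.00736 and an adjusted p of 0.499 (limma), and the exact permutation test p = 0.00952, the smallest it can give. It was thus not called among 4735 regions. Its site nearest to the middle of the peaks lay inside a peak of 6 lists.

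Rbm15b-5, around the stop codon of Rbm15b, ranked 84% and 83.4% in Sham, 34.4% and 79.6% at 0 h, 88% and 91.6% at 6 h, and 91.4% and 78.2% at 24 h. No single base of Rbm15b-5 was covered in every list, so these ranks can come from different peaks. Its peaks covered 150 and 525 nt at 0 h, against 475 and 600 nt in Sham. As in Rbm15-6, the 0 h lists lay below and the 6 h lists above the Sham lists. This opposite order of 0 h and 6 h held for 2 of the 14 member regions and for 2.3% of all 4735. For 6 h and 24 h it held for 1 of the 14 (Rbm15-6), against 2.11% of all, and for 0 h and 24 h for 0 of the 14, against 2.34%. In Zc3h13-9, Rbm15-5 and Cbll1-3, by contrast, the ranks stayed between 82.9% and 97.2% over all 8 lists.

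**Figure D5:**
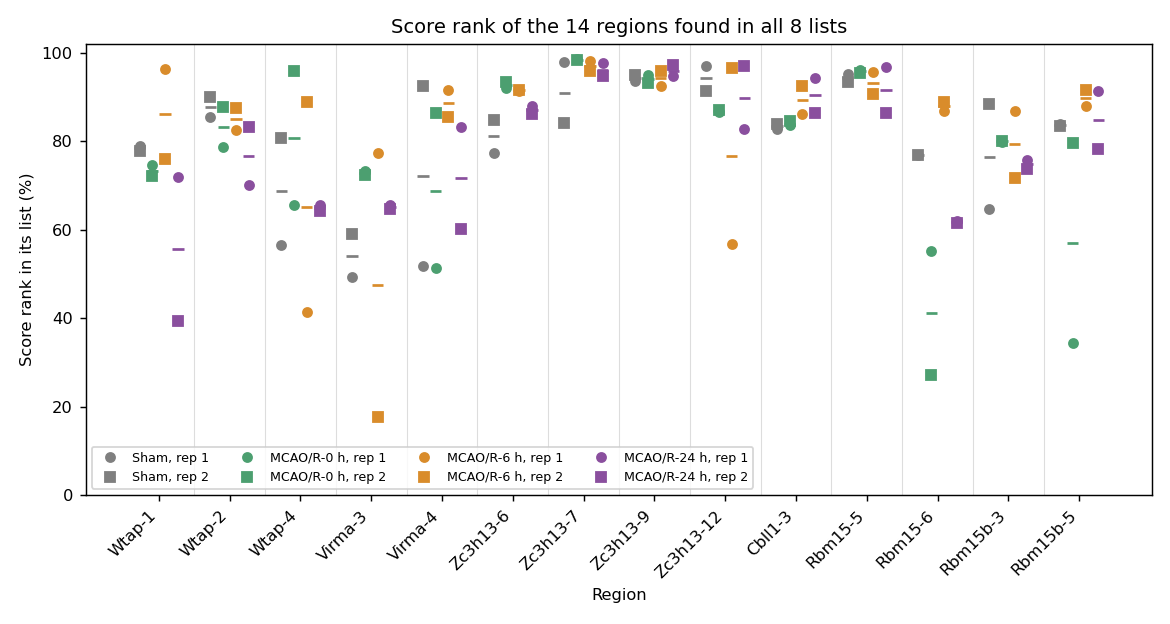
Score rank in its list (percent of peaks that scored lower) of the 14 member regions found in all 8 lists, by group (colour) and replicate (circle, replicate 1; square, replicate 2; dash, mean of the 2). In Rbm15-6 the 4 groups do not overlap, whereas in Wtap-4 and Virma-4 replicates of one group lie as far apart as the groups. No single base of Wtap-4 was covered in every list, so its ranks can come from different peaks.

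Other genes that write, read or erase RNA methylation were counted in the same way. Of the YTH readers, 4 of 5 carried peaks and all 4 in all 8 lists (Ythdf1, Ythdf2, Ythdf3 and Ythdc1), with 7 of 20 regions in all 8 lists, and Ythdc2 had none. Of 6 genes of other RNA methyltransferases and their cofactors, 4 carried peaks and none in all 8 lists, with Pcif1 and Mettl4 in 7 lists and Mettl5 in none. Of 7 other AlkB homologues, 4 carried peaks, and Alkbh8 alone did so in all 8 lists, with 17 peaks. These counts were not tested against each other.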

How the data were processed

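In the authors' processing, Trim Galore 0.6.7 did the trimming and HISAT2 2.2.1 the alignment to GRCm39, samtools dropped reads that were unmapped or mapped to several places, and exomePeak2 called the peaks (p-value cutoff 0.05, log2 fold change cutoff 0.5). RNA fragments were about 100 nt by the methods and about 200 nt by the sample records. The version of the peak caller and any pooling of replicates are not given in the sources used here. The deposited lists, 1 per IP library, give each peak a score on a scale that is not defined, so only ranks were used. Depth is unknown, and no counting error can be given.

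Introns were removed from each peak with GENCODE M39 exons. A peak went to the same-strand gene with the most exonic overlap, and its centre was placed on the transcript with the longest coding sequence. Python 3.11.15 (numpy 2.4.6, scipy 1.17.1, pandas 2.3.3, matplotlib 3.10.9) and limma 3.58.1 in R 4.3.3 were used. Limma was also run on simulated data, and the difference it could detect with 2 libraries per group is not reported here. Adjusted p-values cover all 4735 regions in all 8 lists, a filter that ignores the groups but keeps only regions listed everywhere. All 10 genes are named by rule. The 10 genes and the other lists were chosen with earlier results of these data known. The alternatives were leaving out each library, equal or higher-scoring lists, other ways to join or assign peaks, a replicate block, an exact permutation test, plain ranks and gene-level ranks. One cell type marker is not reported here.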

Additional observations from a re-analysis of the deposited data

Results flagged for a closer look

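Rbm15-6 was singled out because its libraries of 0 h (MCAO/R-0 h) and those of 6 h lay on opposite sides of both Sham libraries in score rank, as did those of 6 h and those of 24 h. The rank was 1.41 higher in normal scores at 6 h than at 0 h (limma, adjusted p = 0.434 over 4735 regions), and the difference of 24 h from 6 h was -0.87 (adjusted p = 0.668, limma). Rbm15b-5 was singled out in the same way for 6 h against 0 h, with a difference of 1.07 (limma, adjusted p = 0.763), and there MCAO/R-0 h replicate 1 (34.4%) lay far below replicate 2 (79.6%). No single base of Rbm15b-5 was covered in every list, so its ranks can come from different peaks. None of the 3 differences passed the adjustment.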

How the results depend on the processing

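Regions in all 8 lists numbered 14 on the 10 genes, and 13 with lists trimmed to the size of the shortest, 9 with the higher-scoring 50% of each list and 14 to 17 when 1 list was left out. Peaks on the 10 genes averaged 38.9 ± 1.96 per list (SD, n = 8), and 25.8 with the higher-scoring 50%, a setting that removes peaks by construction. The average was 38.4 to 39.1 when 1 list was left out. The mean over the lists of the median rank (66.1%) and of the share within 200 nt of the stop codon (10.8%) moved by less than 1 SD in every setting run, to 63% to 69.1% and to 9.84% to 11.7%. When 1 list was left out, regions gained numbered 4 to 5, 4 to 6 and 1 to 6 at 0 h, 6 h and 24 h, and regions lost 1 to 8, 0 to 8 and 0 to 6. Leaving out MCAO/R-0 h replicate 1 or 2 gave 5 gained each, and replicate 2 gave 4 lost. Leaving out MCAO/R-6 h replicate 1 gave 5 gained and 2 lost, and leaving out MCAO/R-24 h replicate 1 or 2 gave 5 or 6 gained, with 2 lost for replicate 2. With lists of equal size 0 were gained at 0 h, and with the higher-scoring 50% 0 were gained and 0 lost at 0 h and 0 gained at 24 h. No region passed an adjusted p of 0.05 in limma in any setting except with the percentile rank itself, where 1 of 4735 did, on no member gene. Replicate numbers were shared by the groups but did not pair the libraries (correlations of 0.0404 to 0.0841 between groups), and with a replicate block 0 regions were called and 1 member region had an unadjusted p under 0.05. That count was 0 to 2 over the other settings. The unknown depth and the missing input limit every statement that a peak was absent.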
